A study of Mus musculus with 189 samples.

Results

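The 10 genes described here encode transcription factors of the mast cell lineage and were read in single cells of the mouse peritoneal cavity: Gata1, Gata2, Mitf, Spi1, Runx1, Tal1, Zfpm1, Maf, Lmo2 and Ikzf1. They were chosen by name, and each of the 10 symbols matched 1 of the 46078 gene rows of the count table. The study sorted live cells from 4 female C57BL/6 mice that carried no lineage marker and stained for c-Kit as well as FcεRI, the receptor that binds IgE tightly. Of these, 94 were gated as mature mast cells, with low integrin β7 and high side scatter, and 95 as basophil-mast cell progenitors (BMCPs), with high integrin β7 and low side scatter. The labels name no treatment, and the ages of the mice are not given in the sources used here. No cell was assigned to a mouse, so each group was 1 pooled sample. No test was therefore possible, and the intervals below cover counting error only, not differences between mice or between amplification reactions.

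Cells with at least 100000 reads on mouse genes were kept, which left 94 mature mast cells and 93 BMCPs. The kept cells had a median of 1.26e+06 such reads in mature mast cells (range 561600 to 2152221) and 1.25e+06 in BMCPs (range 344022 to 2091665). Levels are given as CPM, the share of a cell's mouse gene reads that fell on a gene, expressed as counts per 1e+06 reads. Of the 9 mast cell marker genes, Fcer1a, Cpa3, Cma1, Tpsb2, Mrgprb1, Mrgprb2 and Mcpt4 had at least 1 read in all kept cells. Kit was read in 92 of 93 BMCPs and Ms4a2, the IgE receptor β chain, in 85 of 93, and both were read in 94 of 94 mature mast cells. At 20 CPM or more, Cpa3, Cma1 and Tpsb2 were found in all 93 BMCPs. Fcer1a was found so in 86, Mcpt4 in 79, Kit in 89 and Ms4a2 in 76. In the same order, these last genes reached 20 CPM in 93, 94, 93 and 89 of 94 mature mast cells. Mcpt4 in BMCPs lay close to this cut in many cells, with a lower quartile of 23.4 CPM and a median of 33.4 CPM. It reached 100 CPM in 38 of 93 BMCPs and in 91 of 94 mature mast cells. BMCP numbers 46 and 80 stood apart, with 67713 and 71090 CPM summed over 6 B cell markers and only 363 and 514 CPM over the mast cell markers. BMCP 46 reached 20 CPM of Lmo2 alone among the 10 factors and BMCP 80 of Runx1 alone, so each counts once wherever BMCPs with that factor are counted.

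Mast cells arise from haematopoietic progenitors under a small set of transcription factors that act in combination. The zinc finger proteins GATA1 and GATA2 bind the same core motif, and GATA2 with the basic helix-loop-helix leucine zipper protein MITF is known to drive genes of the mast cell granule, of Kit and of the IgE receptor. FOG-1, the product of Zfpm1, is a GATA cofactor needed for red cells and platelets. PU.1, the product of Spi1, is an ETS factor of myeloid and B cells. TAL1 pairs with E proteins, and LMO2 bridges that pair to GATA factors in a complex with LDB1. RUNX1 binds DNA with CBFβ, Ikaros (Ikzf1) is a lymphoid and myeloid zinc finger factor, and c-MAF (Maf) is a large basic leucine zipper factor best known in T cells and macrophages.

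On GRCm38, with GENCODE M21 gene models, Gata2 lies at chr6:88193891-88207032 on the plus strand, and Gata1 at chrX:7959260-7978071, Runx1 at chr16:92601466-92826149 and Maf at chr8:115682942-115707794, all on the minus strand. Mitf shares chromosome 6 with Gata2, Zfpm1 shares chromosome 8 with Maf, and Spi1 and Lmo2 both lie on chromosome 2. The start regions of 7 of the 10 genes were matched in RefSeq's GRCm38.p6 table, as 13 windows, since several genes have more than 1 annotated start. Those of Spi1, Maf and Lmo2 were not matched. The 250 bases before the start are printed for Gata2 and Gata1, the GATA pair of the lineage, and for the 2 starts of Runx1, the matched factor whose level differed most between the groups. Each is written 5′ to 3′ on the gene's strand. Capitals mark GATA motifs (NGATAA or NGATAG on either strand, with A or T at N) and E-boxes (CANNTG, the same on both strands).

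Gata2 upstream start (chr6:88193641-88193890, plus strand): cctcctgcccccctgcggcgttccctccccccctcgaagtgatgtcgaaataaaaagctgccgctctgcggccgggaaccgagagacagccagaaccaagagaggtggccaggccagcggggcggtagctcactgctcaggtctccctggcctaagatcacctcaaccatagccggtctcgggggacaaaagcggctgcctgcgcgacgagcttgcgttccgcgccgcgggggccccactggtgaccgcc

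Gata1 (chrX:7967911-7968160, minus strand): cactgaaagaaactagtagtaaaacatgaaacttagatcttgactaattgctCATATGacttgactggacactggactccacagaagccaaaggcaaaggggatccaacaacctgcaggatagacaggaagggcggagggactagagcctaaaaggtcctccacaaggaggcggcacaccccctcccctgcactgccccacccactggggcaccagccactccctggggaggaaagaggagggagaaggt

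Runx1 upstream start (chr16:92826075-92826324, minus strand): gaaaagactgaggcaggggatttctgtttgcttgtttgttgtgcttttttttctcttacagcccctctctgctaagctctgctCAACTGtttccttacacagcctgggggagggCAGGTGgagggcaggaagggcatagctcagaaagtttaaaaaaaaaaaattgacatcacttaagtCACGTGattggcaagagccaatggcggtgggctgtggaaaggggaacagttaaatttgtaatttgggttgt

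Runx1 downstream start (chr16:92697330-92697579, minus strand): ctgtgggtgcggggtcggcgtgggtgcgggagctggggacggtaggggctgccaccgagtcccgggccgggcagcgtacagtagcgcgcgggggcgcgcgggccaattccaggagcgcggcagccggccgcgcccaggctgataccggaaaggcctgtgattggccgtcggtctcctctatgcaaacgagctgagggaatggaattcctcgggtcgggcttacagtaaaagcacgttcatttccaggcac

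A GATA motif stood in 3 of the 13 windows, against 26.5% of all 32851 windows of that table, and an E-box in 3 of 13, against 66.2%. The 3 GATA-bearing windows belonged to Tal1 and Mitf, and none of the 4 sequences above held one. The upstream start of Runx1 held 3 E-boxes and its downstream start none. The RUNX motif TGTGGT stood in 1 of 13 windows, of Mitf, against 14.05% of all windows, and the PU.1 core GAGGAA in 3 of 13, against 23.3%, both on either strand. These matches describe the letters only. The counts were summed per gene and do not show which start a transcript came from.

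Gata2 was the one factor read at a high level in nearly every cell of both groups. In mature mast cells its level ranged from 1.35 to 3444 CPM with a median of 962.9, and in BMCPs from 1.47 to 4734 CPM with a median of 1075. The ranges overlapped almost fully. The pooled level was 1041 CPM in the mature cells (95% Poisson interval 1035 to 1047), against 1394 CPM for BMCPs (1387 to 1401), which puts the log2 ratio at -0.42 (mature divided by BMCP, 1 CPM added to both). Among the 10556 genes that reached 5 CPM in 1 group or both the median log2 ratio was -0.25, so Gata2 lay close to the typical gene. At least 20 CPM, the level used here to count a cell as carrying a transcript, was reached in 92 of 94 mature mast cells (97.9%, exact Clopper-Pearson interval 92.5 to 99.7), against 87 of 93 BMCPs (93.5%, 86.5 to 97.6).

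The 8 cells under 20 CPM of Gata2 were not alike. BMCPs 46 and 80, the wells with B cell genes, had 1.47 and 3.51 CPM, and neither reached 20 CPM of Gata1. BMCP 11 and mature mast cells 30 and 83 had Gata1 at 1130, 146.7 and 565.8 CPM. BMCP 74 had Gata1 at 349.5 CPM, while BMCPs 55 and 85 had at most 1.21 CPM. BMCP 85 nevertheless held 327312 CPM over the mast cell markers, more than 94.6% of BMCPs. Thus every mature mast cell had at least 20 CPM of Gata1 or Gata2 (94 of 94), as did 89 of 93 BMCPs (95.7%, 89.4 to 98.8), and 2 of the other 4 were the wells with B cell genes.

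Gata1, which acts after Gata2 in several blood lineages, reached 20 CPM in about every other cell. At least 1 Gata1 read was found in 75 of 94 mature mast cells and 63 of 93 BMCPs. The Gata1 level ranged from 0 to 1594 CPM with a median of 53.7 in mature mast cells and from 0 to 1327 CPM with a median of 20.3 in BMCPs. The share of cells at 20 CPM was close in both groups, at 52 of 94 (55.3%, 44.7 to 65.6) and 48 of 93 (51.6%, 41.01 to 62.1). It depended on the cut, since at 50 CPM the shares were 51.1% and 37.6%. The level in cells at 20 CPM differed, with a median of 388 CPM in the mature cells (quartiles 197.6 and 535.5), against 161.8 CPM for BMCPs (quartiles 48.8 and 446.6). Pooled, Gata1 had 232.4 CPM in the mature cells (229.6 to 235.1), against 152.3 CPM for BMCPs (150.1 to 154.6), a log2 ratio of 0.61. The ratio was positive under all 14 alternative scalings, summaries and subsets of cells, from 0.04 to 1.51.

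The Gata1 ratio was not even over the table. The columns were split here into 2 blocks, mature mast cells 1 to 47 with BMCPs 1 to 48, and the remaining columns. Mature mast cells stand in 2 separate runs of columns, but BMCPs in 1 unbroken run, which was cut where its numbering pattern restarts. The labels do not say what these blocks are. Gata1 had a log2 ratio of 1.28 in block 1 and 0.04 in block 2, with 271.2 against 111.0 CPM in the first and 198.3 against 192.9 CPM in the second. The counts of cells at 20 CPM were 27 of 47 against 22 of 47 in block 1, and 25 of 47 against 26 of 46 in block 2. The excess in mature cells thus came from block 1, and the pooled ratio is not a stable size.

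Zfpm1, the GATA cofactor of red cells and platelets, was all but unread. Mature mast cells held 2 Zfpm1 reads, both in 1 cell, or 0.017 CPM, and BMCPs held 26, of which 25 lay in BMCP 32. The BMCP level was 12.9 times the mature level by counting alone (exact interval 3.24 to 112), a ratio that rested on BMCP 32. No mature mast cell reached 20 CPM, which allows a share of up to 3.19% of cells by the limit of 3 counts in 94 (3.85% by the exact interval), and 1 of 93 BMCPs did, at 31.5 CPM.

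**Figure D1:**
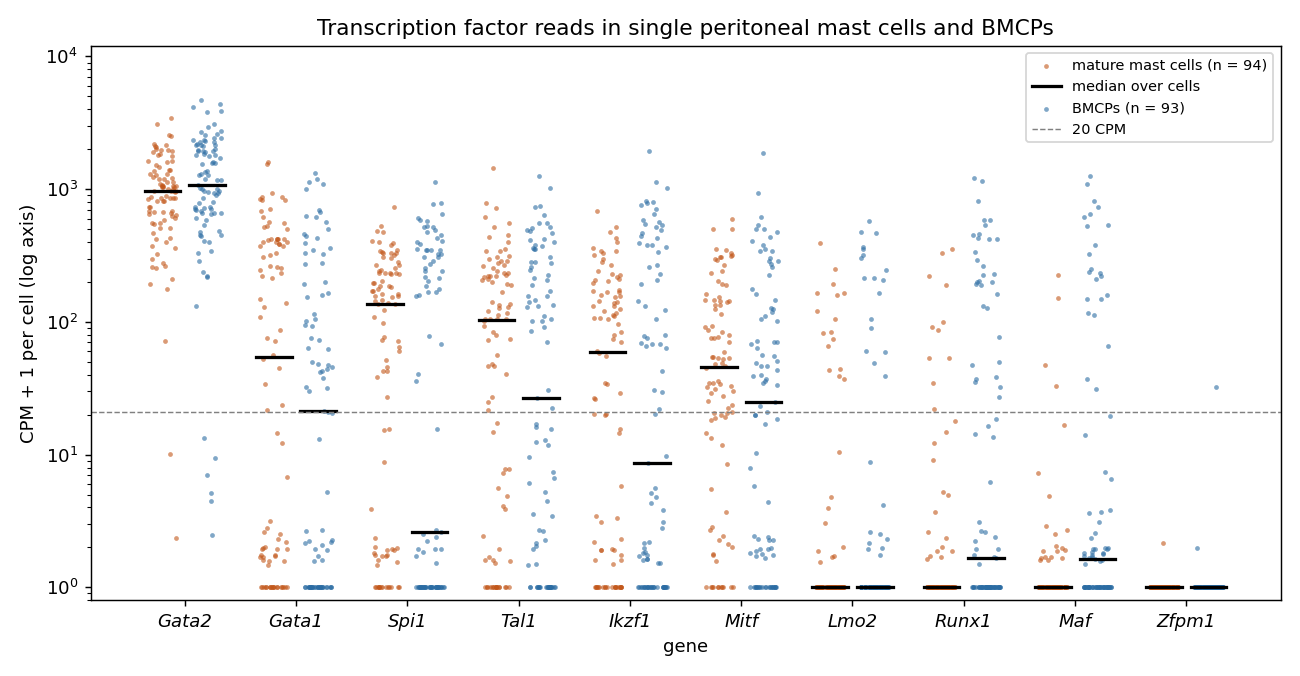
Each point is 1 cell and gives the CPM of a factor plus 1 on a log axis, for 94 mature mast cells and 93 BMCPs, with bars at the median over cells and a dashed line at 20 CPM. Gata2 lies above the line in 92 and 87 cells, Zfpm1 in 0 and 1, and the other factors spread widely above and below the line, Mitf with many mature mast cells close to the line.

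Mitf encodes the leucine zipper partner of GATA2 in mast cell gene control. It ranged from 0 to 598.8 CPM with a median of 44.6 in mature mast cells and from 0 to 1887 CPM with a median of 24.1 in BMCPs. It was at 20 CPM or more in 61 of the 94 mature cells (64.9%, 54.4 to 74.5), against 49 of 93 BMCPs (52.7%, 42.1 to 63.1), and these intervals overlapped. Pooled levels went the other way, at 97.4 CPM in the mature cells (95.7 to 99.2), against 126.1 CPM for BMCPs (124.1 to 128.1), a log2 ratio of -0.37. BMCP 51 alone held 18.8% of the BMCP reads, and without it the ratio was -0.09. Gata2 and Mitf were both at 20 CPM in 59 of the 94 mature cells (62.8%, 52.2 to 72.5), against 48 of 93 BMCPs (51.6%, 41.01 to 62.1).

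Spi1 encodes PU.1, and among the factors it had the largest excess in share of mature cells. Its level ranged from 0 to 733.5 CPM with a median of 136.5 in mature mast cells and from 0 to 1131 CPM with a median of 1.62 in BMCPs. The share at 20 CPM was 62 of 94 mature mast cells (65.96%, 55.5 to 75.4) and 44 of 93 BMCPs (47.3%, 36.9 to 57.9), with intervals that overlapped slightly. The BMCPs that carried it had more, with a median of 333.5 CPM over these cells against 194.3 CPM. The pooled values of 148.8 CPM (146.6 to 151.0) and 176.5 CPM (174.1 to 178.9) gave a log2 ratio of -0.25, equal to the median gene. The ratio was 0.51 in column block 1 and -0.81 in block 2, so its direction was not settled.

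Tal1, the helix-loop-helix factor of the blood stem cell complex, and Ikzf1, which encodes Ikaros, also had a larger share but a lower median over carrying cells in the mature group. Tal1 ranged from 0 to 1439 CPM with a median of 102.1 in mature mast cells and from 0 to 1258 CPM with a median of 25.8 in BMCPs. It reached 20 CPM in 61 of 94 (64.9%, 54.4 to 74.5) and 48 of 93 cells (51.6%, 41.01 to 62.1), with medians of 204.6 and 267.5 CPM over those cells. Its pooled levels of 158.6 and 155.4 CPM gave a log2 ratio of 0.03, which was -0.11 without mature mast cell 21. Ikzf1 ranged from 0 to 678.8 CPM with a median of 58.01 in mature mast cells and from 0 to 1938 CPM with a median of 7.60 in BMCPs. It reached 20 CPM in 54 of 94 (57.4%, 46.8 to 67.6) and 44 of 93 cells (47.3%, 36.9 to 57.9), with medians of 154.8 and 348.5 CPM over those cells. Pooled, Ikzf1 had 115.0 CPM (113.1 to 116.9) and 189.8 CPM (187.3 to 192.2), a log2 ratio of -0.72.

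Across the 9 factors above 5 CPM, 6 were carried by a larger share of mature mast cells than of BMCPs, as were 66.1% of all 10556 genes. Over the cells that carried them, 8 of the 9 had the higher mean in BMCPs, Gata1 being the exception, as did 87.3% of the 10042 genes carried in both groups. Both counts are thus near the background and are no result about the factors. In column block 2 the share was larger in BMCPs for Gata1 (56.5% against 53.2%) and Ikzf1 (58.7% against 55.3%). After each cell was thinned to 100000 reads, a Spi1 read was found in 65 of 94 mature mast cells and 45 of 93 BMCPs, and a Mitf read in 73 and 53. The gaps were smaller for Ikzf1, with 59 and 53 cells, and for Gata2, with 92 and 90. A read of Gzmb, which no mature mast cell held at 20 CPM, was found in 26 of the 94 in the same way. Shares from single reads thus count cells with very few reads of a gene. Whether such reads are background or low expression was not tested. RNA content moved with the groups. The median cell had 939 endogenous reads per read of the ERCC spike-in RNA among mature mast cells and 562 among BMCPs, and the part of this in the shares was not tested.

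**Figure D2:**
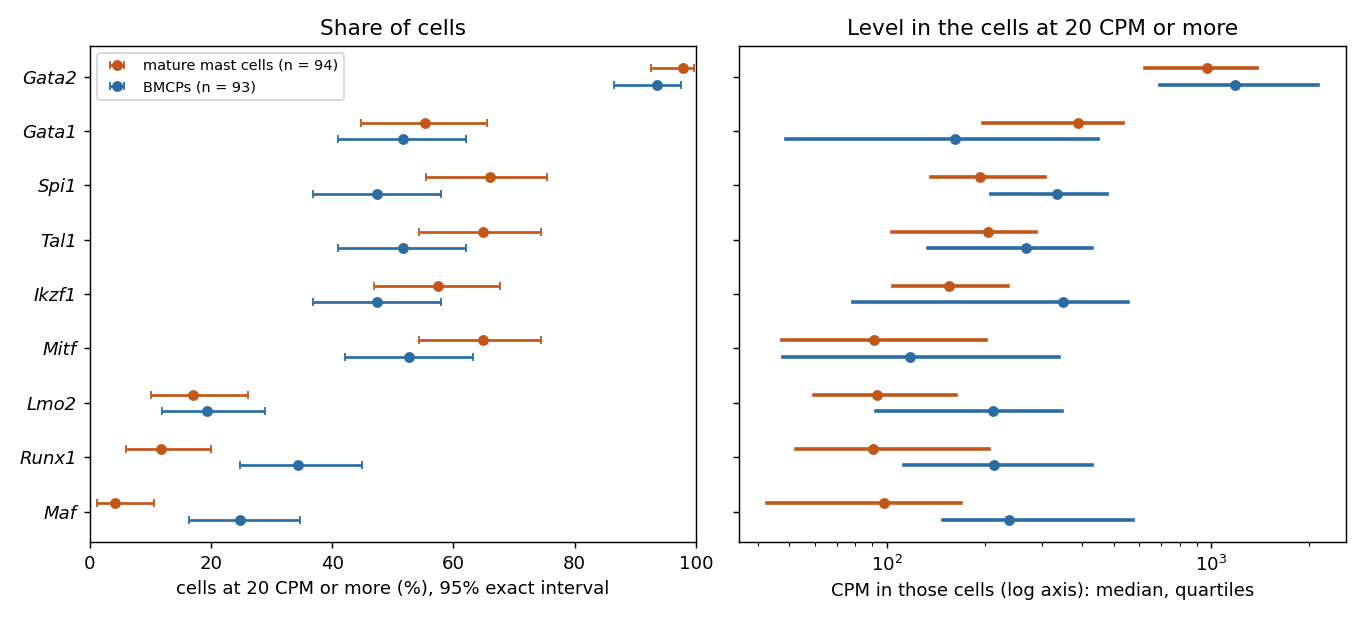
The left panel gives the share of cells at 20 CPM or more of each factor with its 95% exact interval, and the right panel gives the median and quartiles of CPM over those cells on a log axis, for mature mast cells and BMCPs. Spi1, Tal1, Ikzf1 and Mitf lie further right for mature mast cells on the left and for BMCPs on the right, while Runx1 and Maf lie further right for BMCPs in both panels.

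Runx1 and Maf differed most between the groups, both higher in BMCPs in share and in level. Runx1 ranged from 0 to 351.6 CPM in the mature cells and from 0 to 1214 CPM in BMCPs, with medians of 0 and 0.65 CPM. It was at 20 CPM or more in 11 of the 94 mature cells (11.7%, 5.99 to 20.0), against 32 of 93 BMCPs (34.4%, 24.9 to 44.98), and these ranges of error did not overlap. The pooled level was 16.9 CPM in the mature cells (16.1 to 17.6), against 105.1 CPM for BMCPs (103.3 to 107.0), a log2 ratio of -2.57 and 6.23 times more in BMCPs. The ratio was -2.49 in column block 1 and -2.65 in block 2.

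Maf ranged from 0 to 225.9 CPM in the mature cells and from 0 to 1263 CPM in BMCPs, with medians of 0 and 0.63 CPM. It was at 20 CPM or more in 4 of the 94 mature cells (4.26%, 1.17 to 10.54), against 23 of 93 BMCPs (24.7%, 16.4 to 34.8). The intervals did not overlap, with the same limit to counting error. Pooled, it had 5.05 CPM (4.65 to 5.47) and 98.4 CPM (96.6 to 100.2), a log2 ratio of -4.04 and 19.5 times more in BMCPs. Mature mast cell 52 held 246 of the 600 mature reads, and without it the ratio was -4.63. In block 1 the ratio was -5.40 and in block 2 it was -3.42. Part of the Maf gene (5.34% of its exon bases) is shared with the antisense gene Gm15655, which had 0 reads, and 0.88% of the Runx1 exon bases with Gm26626, which had 187.

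Lmo2, the bridging protein of the TAL1 complex, was rare in both groups. It ranged from 0 to 390.7 CPM in the mature cells and from 0 to 571.7 CPM in BMCPs, with medians of 0. It was at 20 CPM or more in 16 of the 94 mature cells (17.02%, 10.1 to 26.2) and 18 of 93 BMCPs (19.4%, 11.9 to 28.8), and 9 cells held 84.1% and 81.6% of its reads. Its pooled log2 ratio of -1.02, from 24.6 and 50.8 CPM, just passed 2-fold, but it was -2.93 in block 1 and 0.22 in block 2. It fell short of 2-fold without BMCP 46, one of the wells with B cell genes, which had 212.7 CPM of Lmo2, or without BMCP 25 (-0.82), so no direction was settled.

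Of the 9 factors above 5 CPM, 3 (Runx1, Maf and Lmo2) were thus at least 2-fold higher in BMCPs, where 19.2% of all 10556 genes were, and 0 were 2-fold higher in mature mast cells, where 9.9% of genes were. The median log2 ratio of the 9 was -0.42. Lmo2 did not pass 2-fold under TMM scaling (trimmed mean of M-values, -0.78), ERCC scaling (-0.13) or totals without granule genes (-0.82), which left 2 factors, Runx1 and Maf. Scaling moved all genes together. The median of all genes was -0.25 with total reads, 0.00 with TMM scaling, -0.04 with totals that left out 11 granule genes, and 0.67 with ERCC scaling. Under ERCC scaling, 7.41% of genes were 2-fold higher in BMCPs and 32.8% in mature mast cells, and the ratios of Gata2, Mitf, Spi1 and Ikzf1 turned positive (0.49, 0.54, 0.66 and 0.19). BMCP 55 had a large part in this scaling: without it the median of all genes was 0.48, Gata2 stood at 0.28 and Ikzf1 at -0.01. Since a scaling shifts every gene by about the same amount, the factors are also given relative to the median of all genes, where Gata1 stood at 0.86, Gata2 at -0.17, Runx1 at -2.32 and Maf at -3.79 with total reads. Runx1 and Maf stayed lower in mature mast cells under every one of the 14 alternatives.

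**Figure D3:**
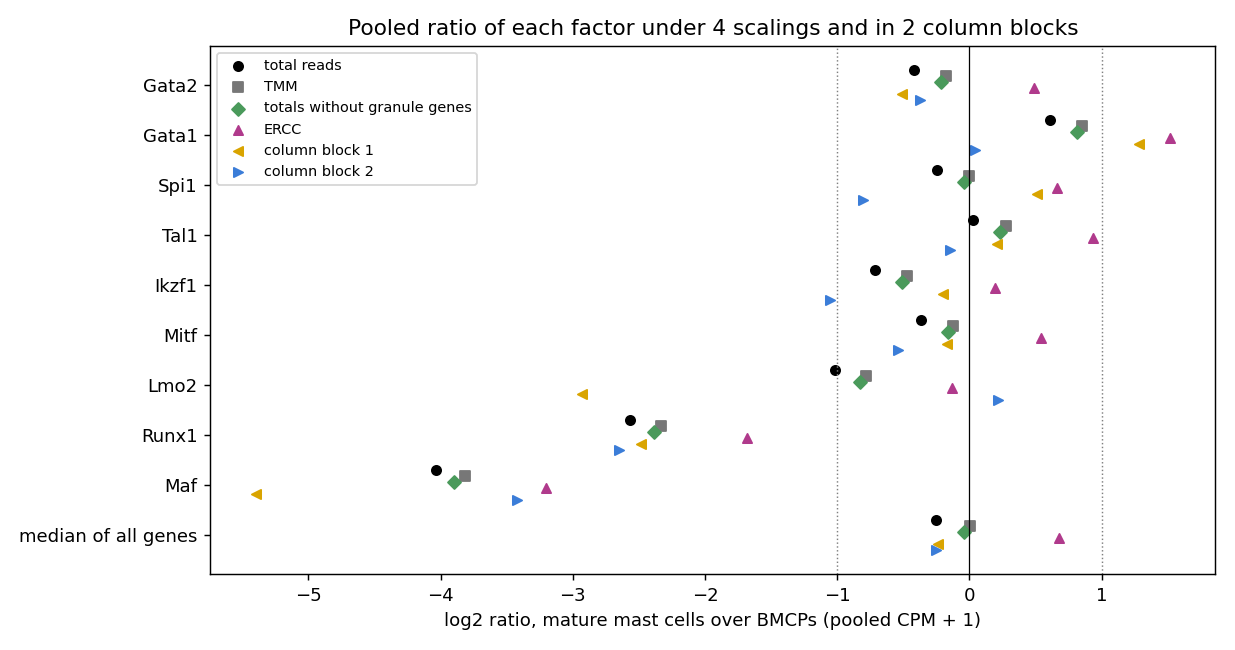
Points give the log2 ratio of pooled CPM plus 1, mature mast cells over BMCPs, for 9 factors and for the median of all genes, under 4 scalings and in each column block, with dotted lines at 2-fold. Runx1 and Maf lie left of -1 in every case, Gata1 lies right of 0 in every case, the other 6 lie on both sides of 0, and ERCC scaling shifts all factors to the right with the median of all genes.

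Per kilobase of annotated exon, the factors could be ordered within a group. In mature mast cells pooled Gata2 stood at 192.8 CPM per kilobase, followed by Gata1 at 95.3, Spi1 at 55.2, Tal1 at 36.2, Ikzf1 at 19.9, Mitf at 15.7, Lmo2 at 11.3, Runx1 at 1.40 and Maf at 0.61. In BMCPs the order was Gata2 at 258.3 CPM per kilobase, Spi1 at 65.5, Gata1 at 62.5, Tal1 at 35.5, Ikzf1 at 32.8, Lmo2 at 23.5, Mitf at 20.3, Maf at 11.9 and Runx1 at 8.74. Zfpm1 came last in both. Most neighbours in these orders overlapped in their quartiles over cells. The exceptions were Mitf over Lmo2 in mature mast cells, with a lower quartile of 1.82 against an upper quartile of 0.31, and Gata2 over Spi1 in BMCPs, with 120.9 against 119.6.

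Among BMCPs, Runx1 and Maf were read mostly in cells with granzyme B. Gzmb, a serine protease of cytotoxic granules, was read at 100 CPM or more in 60 BMCPs and below it in 33, with none between 50 and 200 CPM. Runx1 reached 20 CPM in 26 of the 60 (43.3%, 30.6 to 56.8) and in 6 of the 33 (18.2%, 6.98 to 35.5), at pooled levels of 154.4 and 18.1 CPM. Maf did so in 22 of the 60 (36.7%, 24.6 to 50.1) and in 1 of the 33 (3.03%, 0.0767 to 15.8), at 152.7 and 2.36 CPM. The 33 include the wells with B cell genes, BMCPs 46 and 80, and BMCP 80 was 1 of the 6 with Runx1. In mature mast cells the pooled levels were 16.9 CPM for Runx1 and 5.05 CPM for Maf. The BMCPs with little Gzmb were thus close to them in Runx1. Their lower pooled Maf is not read as a difference, since mature mast cell 52 alone held 41% of the mature Maf reads. By share at 20 CPM of Maf, the mature cells (4.26%) were near these BMCPs (3.03%). Gata2 stood at 1606 and 1020 CPM in the 60 and the 33 cells. The shares of cells at 20 CPM were 50.0% and 54.5% for Gata1, 48.3% and 45.5% for Spi1, and 48.3% and 60.6% for Mitf. For Ikzf1 they were 46.7% and 48.5%. Pooled levels differed from this, at 157.9 and 142.4 CPM for Gata1, 136.3 and 108.02 for Mitf, and 228.7 and 120.96 for Ikzf1. Tal1 and Lmo2 also had higher pooled levels in the 60 cells, while Spi1 was lower there, at 171.98 against 184.5 CPM. BMCP 51, among the 60, held 18.8% of the Mitf and 12.8% of the Ikzf1 reads of all BMCPs.

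The basophil protease Mcpt8 divided the BMCPs in a similar way, but not independently. Except for BMCPs 27 and 65, every BMCP at 100 CPM of Mcpt8 or more was also at 100 CPM of Gzmb or more. Of 39 BMCPs at 100 CPM of Mcpt8 or more, Maf reached 20 CPM in 18 (46.2%, 30.1 to 62.8), and of the other 54 in 5 (9.26%, 3.08 to 20.3). Runx1 did so in 20 of 39 (51.3%, 34.8 to 67.6) and in 12 of 54 (22.2%, 12.04 to 35.6). Across the 93 BMCPs, Spearman's rho was 0.42 between Maf and Mcpt8, 0.33 between Maf and Gzmb, 0.34 between Runx1 and Mcpt8 and 0.30 between Runx1 and Gzmb. Against Mrgprb1, a receptor gene of connective tissue mast cells, rho was -0.35 for Maf and -0.29 for Runx1. These values are descriptions over cells that share a library total and a sort, and Runx1 with Gzmb was 0.16 in block 1 and 0.41 in block 2. The correlation of Runx1 with the reads of a cell was -0.20 and that of Maf -0.05.

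**Figure D4:**
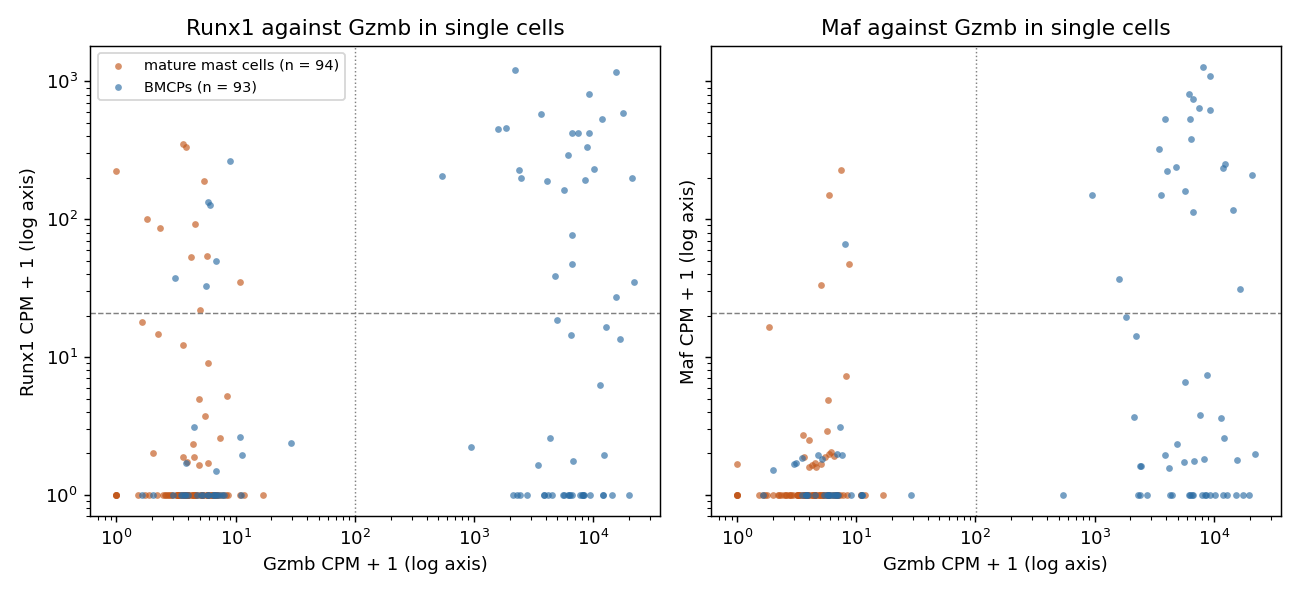
Each point is 1 cell, with CPM of Gzmb plus 1 on the horizontal log axis and CPM of Runx1 (left) or Maf (right) plus 1 on the vertical log axis, for mature mast cells and BMCPs, with lines at 100 CPM of Gzmb and 20 CPM of the factor. Of the 23 BMCPs above the Maf line, 22 lie right of the Gzmb line, as do 26 of the 32 BMCPs above the Runx1 line.

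Runx1 and Maf were only partly read in the same cells. Both reached 20 CPM in 10 of 93 BMCPs (10.8%, 5.28 to 18.9), Runx1 alone in 22 and Maf alone in 13, with a rho of 0.16. In mature mast cells no cell had both, which allows a share of up to 3.19% by the same limit (3.85% by the exact interval). At least 1 of them was present in 45 BMCPs (48.4%, 37.9 to 58.99) and in 15 mature mast cells (15.96%, 9.22 to 24.95).

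Correlations between the factors over cells were weak. Over the 36 pairs of factors other than Zfpm1, rho ran from -0.18 (Tal1 with Ikzf1) to 0.22 (Gata2 with Runx1) in mature mast cells and from -0.15 (Mitf with Ikzf1) to 0.23 (Tal1 with Ikzf1) in BMCPs. None reached 0.3 in size over all cells of a group, although 4 did among the mature cells of block 1, and no relation is read from values this small. GATA1 and PU.1, which are known to antagonize each other, had genes that were often read in the same cell. Gata1 and Spi1 were both at 20 CPM in 35 of the 94 mature cells, and Spi1 reached it in 67.3% of cells with Gata1 and 64.3% of cells without. In BMCPs both were found in 24 of 93 cells, and Spi1 in 50.0% of cells with Gata1 and 44.4% of those without. Tal1, Lmo2 and Gata1 or Gata2 encode some of the parts of the TAL1 complex. They were together at 20 CPM in 11 of 94 mature mast cells (11.7%, 5.99 to 20.0), against 6 of 93 BMCPs (6.45%, 2.40 to 13.5). The genes of E proteins and of LDB1 were not part of this count.

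A cell carried a median of 4 of the 10 factors at 20 CPM in either group, with a range of 1 to 7 in both. Mature mast cells with 4 or 5 factors numbered 30 and 30, and BMCPs 25 and 27. A single factor was found in 1 mature mast cell and in 5 BMCPs, of which 2 were the wells with B cell genes. No cell carried 8 or more.

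**Figure D5:**
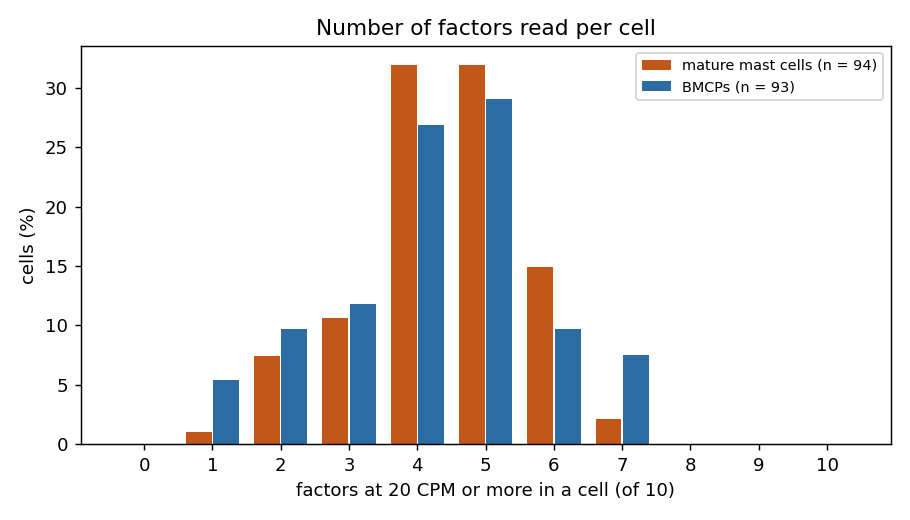
Bars give the percentage of mature mast cells (n = 94) and of BMCPs (n = 93) by the number of the 10 factors at 20 CPM or more. Both groups peak at 4 and 5 factors and end at 7.

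The genes whose levels ran most like each factor were found by Spearman's rho over the cells of a group, among 2470 genes in mature mast cells and 1947 in BMCPs with at least 20 CPM and a read in at least 50% of cells. For Maf in BMCPs these were Scin (0.47), an actin-severing protein, Ptprcap (0.46), which binds the phosphatase CD45, and Mcpt8 (0.42). Ptprcap also led for Runx1 in BMCPs (0.40), followed by Ivns1abp (0.36) and Swap70 (0.36). For Gata2 in BMCPs the top gene was Lat2 (0.41), an adaptor of IgE receptor signalling. The other leading values were of similar size, from 0.33 for Gata1 with Ssr1 and for Tal1 with Mrpl54 to 0.42 for Spi1 with Dclk3 in mature mast cells. In BMCPs they ran from 0.35 for Spi1 with Ndufv2 to 0.41 for Ikzf1 with Sirt7. The 99th percentile over all ranked genes was 0.34 for Maf and from 0.25 to 0.28 for the other 7 factors ranked in BMCPs.

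Of 16 genes of partners and cofactors, 15 passed 5 CPM. Of these, 4 were 2-fold higher in BMCPs, against 19.2% of all genes, and 0 in mature mast cells, against 9.9%. The 4 were Tcf4, Rcor1, Kdm1a and Ssbp2, the last 2 named after their values were seen. The list had a median log2 ratio of -0.56 against -0.25 for all genes. By CPM summed over both groups, Lyl1, a close relative of Tal1, led at 230.3 CPM in the mature cells, against 252.8 CPM for BMCPs, followed by the corepressor gene Cbfa2t3 at 104.7 and 154.5 CPM and the deacetylase gene Hdac2 at 72.5 and 97.3 CPM. Cbfb, the partner of RUNX1, was higher in mature mast cells (91.4 against 55.5 CPM, log2 ratio 0.71), opposite to Runx1. Tcf12, an E protein gene, had a ratio of 0.48. Single cells weighed on these values. Without BMCP 55, which held 47.7% of the BMCP reads of Rcor1, its ratio of -2.06 was -1.16, and that of Tcf4, -2.27, was -4.96 without mature mast cell 51 and -1.56 without BMCP 42. The ratio of Ssbp2 was -1.29, or -0.91 without BMCP 46.

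Relatives of the factors were less read. Of 18 genes 8 passed 5 CPM. Ikzf2, which encodes Helios, and Lmo4 were the 2 that were 2-fold higher in BMCPs, at 282.6 against 132.0 CPM (log2 ratio -1.09) and 223.1 against 75.6 CPM (-1.55). Runx3 had 73.8 CPM in the mature cells, against 59.03 CPM for BMCPs, a ratio of 0.32, where that of Runx1 was -2.57. The ratio was 0.53 for Tfe3, a relative of Mitf, and 0.33 for Gata3, and 0 relatives were 2-fold higher in mature mast cells. The list median was -0.67. Among all genes, 19.2% were 2-fold higher in BMCPs and 9.9% in mature mast cells.

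Other factors of blood lineages had a list median of -0.91 over the 16 of 26 genes above 5 CPM. At least 2-fold higher were 6 in BMCPs, against 19.2% of all genes, and 0 in mature mast cells, against 9.9%. Several of the 6 rested on few cells. Etv6 and Bach1 were named after their values were seen. The ratio of Etv6 was -1.60, or -0.57 without BMCP 11, and Bach1 (-2.97) reached 20 CPM in 2 BMCPs. Bhlhe40, named likewise, had -1.46, or -1.31 without BMCP 33. Stat5a, which carries cytokine signals, had 23.8 CPM in the mature cells, against 94.9 CPM for BMCPs, a ratio of -1.95. Ets1 had a ratio of -1.64, or -0.75 without BMCP 46, the well with B cell genes that held 47.8% of its BMCP reads. Id2, an inhibitor of E proteins, had the most reads, at 930.1 and 1704 CPM (-0.87) and reached 20 CPM in 91 of 94 and 90 of 93 cells. Zeb2 (-0.82), Nfe2 (-0.94), Erg (0.65) and Myb (0.06) stayed within 2-fold. Cebpa, Cebpe, Irf4 and Eomes had no read in any kept cell, while Irf8, named after its values were seen, owed 98.7% of its BMCP reads to BMCP 80, the other such well.

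Mast cell genes known as targets of these factors differed in both directions. Their group differences were known from earlier results of these data and are given as context. Of 13 genes, Mcpt4 (log2 ratio 1.98) and Tpsab1 (1.38) were 2-fold higher in mature mast cells, and Gzmb (-10.07) and Itga4 (-5.07) in BMCPs. The shares of all genes were 9.9% and 19.2%. Those with the most reads, Cma1, Tpsb2 and Cpa3, had ratios of 0.72, 0.73 and 0.45, while Gata2 and Mitf stood at -0.42 and -0.37.

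In all, 14 wells held at least 1000 CPM of a B cell or a T and NK cell marker list, 11 and 3 of them respectively, and no kept cell reached that for macrophages, eosinophils, neutrophils or erythroid cells. Without them 2 factors were 2-fold higher in BMCPs, Runx1 at -2.66 and Maf at -3.95, since Lmo2 stood at -0.98, and the ratio of Tal1 was -0.24 in place of 0.03. The B cell markers summed to a range of 0 to 1355 CPM in the mature cells and 0 to 71090 CPM in BMCPs, with 0 reads for 1 of the 6 genes in mature mast cells. Markers of basophils, the other lineage named in the BMCP label, had no read of Cebpa. They ranged from 4.33 to 30540 CPM over mature mast cells and from 3.64 to 37348 CPM over BMCPs. At least 1000 CPM was reached in 47 of 94 mature mast cells and 57 of 93 BMCPs, so this list did not separate the groups. Pooled, the markers held 3491 and 5259 CPM, of which Mcpt8 made 30.2 and 3294 CPM. The part of these markers in the ratios of Runx1 and Maf was not tested. Before thinning, Gzmb was read in 89 of 94 mature mast cells, at no more than 12 reads, and for this reason shares are given at 20 CPM.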

How the data were processed

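Single cells were sorted into 2 plates of 96 wells, reverse transcribed from oligo-dT with ERCC spike-in RNA, amplified by 23 PCR cycles, and sequenced as 50 bp single-end reads without molecular identifiers, per the labels' protocols. The deposited values are raw read counts per gene and cell, not normalized. The submitters' processing notes name GSNAP, HTSeq 0.5.3p3 and the mm10 build, with no roles. The annotation and any strand setting are not given in the sources used here, so antisense reads cannot be told apart. Summary rows held 31.6% of the table's reads in kept cells, and these and the 92 ERCC rows stayed out of totals.

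Symbols matched 45143 of 46078 gene identifiers, and coordinates and exon lengths came from GENCODE M21 on GRCm38. Python 3.11.15, scipy 1.17.1 and, for TMM factors only, edgeR 4.0.16 were used. Counts were pooled per group. Likeness took the 3 genes of highest rho per factor. Each list names its 3 most abundant genes and up to 2 of the largest ratios each way among genes with at least 20 CPM. The call rule and the Poisson interval were tested on simulated pooled counts. These had no spread between cells, so the check does not show how the calls behave with such spread. The factors and lists were chosen with earlier results of these data known. No 2 cells had identical counts, and doublets were not called.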

Additional observations from a re-analysis of the deposited data

How the results depend on the processing

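No paired analysis was possible because the cell numbers only name wells and no test was made. The column blocks, leaving out each cell in turn, ERCC scaling without BMCP 55 and correlations without wells with markers of other cell types were chosen after seeing the data. Of the 9 factors above 5 CPM, 3 were 2-fold higher in BMCPs, 0 by medians over cells and from 2 to 3 when each cell was left out, the change being Lmo2, whose ratio was 0.22 in block 2, where Ikzf1 passed 2-fold instead (-1.06). Factors 2-fold higher in mature mast cells numbered 0, but 1 (Gata1) under ERCC scaling with or without BMCP 55 and in block 1, and 4 by medians over cells. Medians left 6 factors and 1754 genes above 5 CPM, and 42.5% of these genes were 2-fold higher in mature mast cells and 5.19% in BMCPs. Runx1, Maf and Lmo2 had medians under 5 CPM in both groups and were not among the 6 factors. The count of 0 by medians could therefore not include them and is no result about them. TMM scaling, ERCC scaling and totals without granule genes left 2 factors higher in BMCPs, without Lmo2. Of the 52 list genes above 5 CPM, 14 were 2-fold higher in BMCPs (against 19.2% of all genes) and 2 in mature mast cells (against 9.9%). These counts were 8 and 16 under ERCC scaling, 7 and 16 when BMCP 55 was also left out, and 5 and 6 by medians. The mature count was 4 without granule genes in the totals, 10 in block 1 and 4 in block 2. Pairs of factors with a rho of at least 0.3 in size numbered 0 in both groups, 4 and 1 in mature mast cells of block 1 and block 2, 1 in BMCPs of block 2 and 1 in BMCPs without wells with markers of other cell types. The cause of these changes was not tested. At a median near 1.25e+06 reads a cell, levels under 20 CPM rest on few reads.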
